A study of Mus musculus with 5 samples.

Results

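The receptors through which blood-forming cells read their growth factors were examined in hematopoietic stem cells (HSCs) after conditional deletion of the gene of the RNA-binding protein SYNCRIP. The genes were the tyrosine kinase receptor genes Tek and Csf1r, the single-chain cytokine receptor genes Epor and Csf3r, and the genes of chains that work in receptors of several chains, Csf2ra, Csf2rb, Il6ra, Il6st and Il7r. They were taken by symbol, and all 9 were found among the 24046 gene symbols of the table. Cells came from donor marrow homozygous for floxed Syncrip alleles, transplanted into CD45.1 congenic mice. WT Syncrip f/f donors were Mx1 Cre-negative (3 libraries: WT 1, WT 2 and WT 3), and KO Syncrip Δ/Δ donors were Mx1 Cre-positive (2 libraries: KO 2 and KO 3). Both groups received pIpC, which induces interferon and through it the Mx1 promoter, 6 weeks after transplantation, and HSCs were sorted 3 weeks later, at 9 weeks. Mx1-Cre is not restricted to HSCs, so that Syncrip could be deleted in other interferon-responsive donor cells too, and interferon was induced in controls and KO alike. The sort took CD45.2+ donor cells of the Lin- Sca1+ cKit+ CD150+ CD48- gate, and RNA was measured in bulk after low-input SMART-Seq amplification. The age of the animals and the number pooled per library were not given in the labels.

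Cytokine receptors carry the signals that keep blood progenitors alive and steer them to a lineage. TIE2 (Tek) binds angiopoietin 1 (Angpt1) and is known for quiescence of HSCs in their niche. The erythropoietin receptor serves red cell precursors, CSF1R monocytes and macrophages, and CSF3R neutrophils. Receptors for GM-CSF pair a specific chain (Csf2ra) with the common beta chain (Csf2rb), which IL-3 and IL-5 receptors also use. IL-6 binds IL6RA, which signals through gp130 (Il6st), the chain shared by IL-11, LIF and oncostatin M receptors. IL7RA (Il7r) marks lymphoid progenitors and is absent from HSCs in the classical scheme. TIE2 and CSF1R are kinases themselves, while the other receptors signal through JAK kinases and STAT proteins.

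Values are normalized read counts, that is, reads divided by a size factor of the library. Depth was 21748781 to 22779536 reads in the WT libraries, 18308876 in KO 2 and 12539599 in KO 3, and 1 read was worth 0.833 to 1.52 normalized units. Library values are listed in the order WT 1, WT 2, WT 3 and then KO 2, KO 3. The targeted gene Syncrip read 1944, 1440 and 1794 normalized counts in WT against 294 and 343 in KO. Its log2 fold change, KO against WT, was -2.43 (limma adjusted p = 0.0352, SE 0.22). Every fold change was also computed after taking a linear trend on exon length and GC content out of each library, here called the length and GC adjustment, which gave Syncrip -1.53 (adjusted p = 0.138 by limma).

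The gate was checked against marker genes before the receptors were read. All 12 HSC markers, among them Procr, Slamf1 (CD150), Ly6a (Sca1), Hlf, Mecom and Kit, were detected in every library. Their summed share of the reads was 0.0847% to 0.155% in WT, 0.115% in KO 2 and 0.212% in KO 3. Genes of neutrophils and their precursors were also abundant, although the gate excludes lineage-positive cells. The 11 of 12 neutrophil genes in the table (Ly6g had no row) took 5.94% to 7.16% of the WT reads, 5.31% of those of KO 2 and 2.60% of those of KO 3, and none was at 0 in any library. The 11 monocyte and macrophage genes in the table (of 12, Adgre1 had no row) took 0.460% to 0.631% in WT, 0.372% in KO 2 and 0.148% in KO 3. The 10 adipocyte genes stood at 0.00146% to 0.00215% in WT and 0.000829% in KO 3, but at 0.149% in KO 2, where the brown fat gene Ucp1 had a normalized read count of 5622 and was at 0 in the other 4 libraries. Genes of megakaryocytes took 0.0263% to 0.0472% in WT, 0.0465% in KO 2 and 0.107% in KO 3, and stroma genes 0.0107% in WT 2 and 0.00152% to 0.00187% elsewhere. KO 2 and KO 3 thus each stood apart from WT in their own way, and receptor values that rest on either are given without it below.

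**Figure D1:**
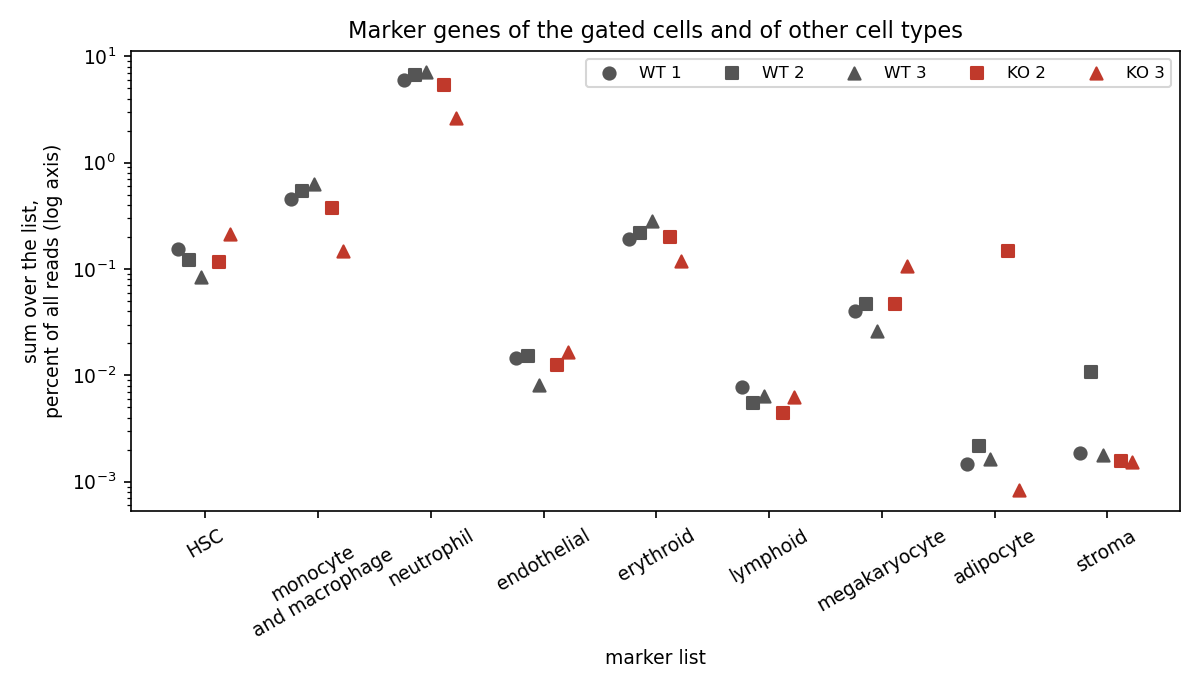
Summed reads of each marker list as a percent of all reads of the library, on a log axis, for the 3 WT (grey) and 2 KO (red) libraries, 1 point per library. Neutrophil genes had the largest sums, at 2.60% to 7.16%, KO 3 was lowest for the neutrophil, monocyte and erythroid lists, and the adipocyte list stood at 0.149% in KO 2.

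The receptors spanned a wide range of levels in the WT libraries. These levels are those of the whole sorted samples, which also held the neutrophil and monocyte genes given above. Levels between genes were compared per kilobase of exon, using the merged exons of GENCODE M21. Csf2ra was highest, with a WT mean of 2107 ± 601 normalized reads per kb (SD, n = 3), followed by Csf3r at 1601 ± 343 and Epor at 1144 ± 78.6. These 3 lay at the 97.0, 95.6 and 92.9 percentiles of the WT means per kb of the tested genes. Csf2rb stood at 361 ± 20.5, so that the GM-CSF specific chain was measured well above its common chain. Csf1r at 150 ± 41.1, Tek at 77.6 ± 25.6, Il6ra at 46.7 ± 6.05 and Il6st at 30.5 ± 8.77 normalized reads per kb followed. Il7r was last, at 5.64 ± 5.17, the 8.39 percentile. In WT the ranges of neighbours in this order overlapped for Csf2ra and Csf3r, and were apart for the other 7 neighbouring pairs, by narrow gaps for Csf3r against Epor and for Tek against Il6ra. The order of close neighbours such as Il6ra and Il6st depends on the merged exon length used. In KO the order of the means changed in 2 places: Epor, at 1718 ± 133 (SD, n = 2), lay above Csf3r at 1079 ± 379 with ranges apart, and Tek, at 88.0 ± 53.2, lay above Csf1r at 69.9 ± 12.4 with overlapping ranges.

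**Figure D2:**
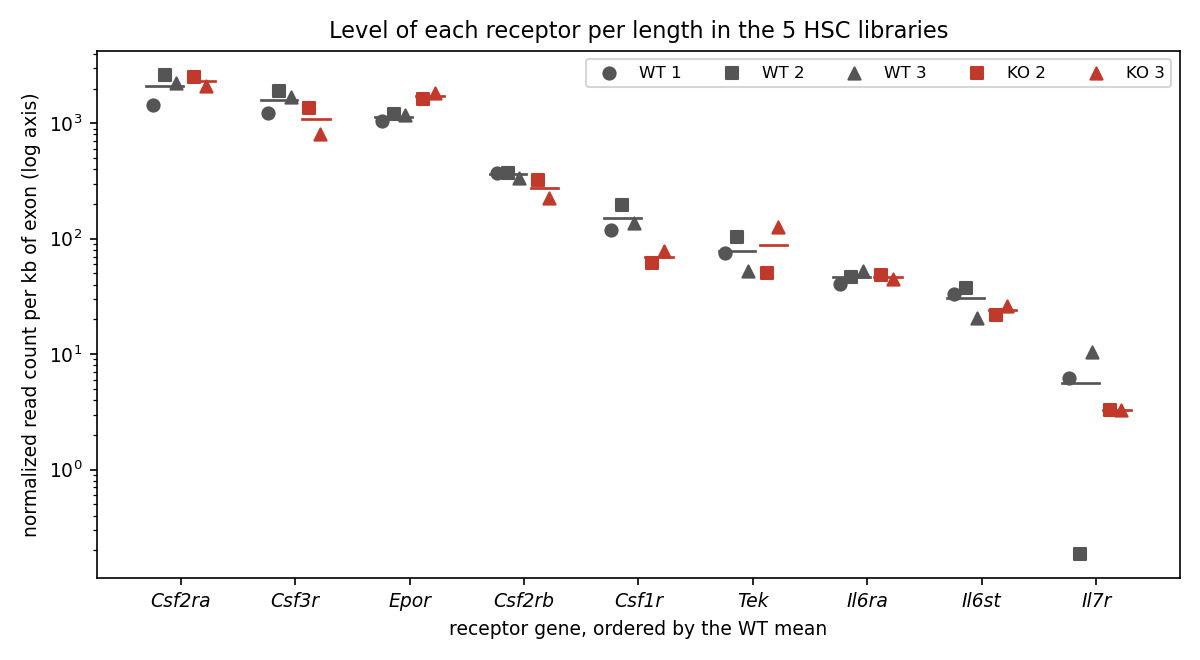
Normalized read count per kb of merged exon for each receptor (log axis), ordered by the WT mean, with 1 point per library (WT grey, KO red) and the group mean as a line. Csf2ra, Csf3r and Epor lay above 800 in every library, and Il7r lay lowest, with WT 2 at 0.186, which is a single read.

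Whether any receptor changed with Syncrip was tested in a fit across 13661 genes that reached a value of 10 in 2 or more libraries. All 9 receptors passed that filter. None of the 9 reached an adjusted p under 0.05 by limma, where 1 gene of all those tested did, Syncrip (0.00732% of genes tested). At an unadjusted p under 0.05 there were 2 of 9, Csf1r and Epor, against 27.8% of all genes, and their adjusted p-values were 0.082 and 0.0916. In edgeR (quasi-likelihood, on whole reads recovered from the values) none of the 9 passed, against 0.0146% of all genes, and 2 of 9 had an unadjusted p under 0.05, against 27.2% of all genes. DESeq2 on the same reads gave an adjusted p for 8 receptors and called 2 of them, Epor higher and Csf1r lower, where 18.9% of the genes with an adjusted p were called. Without KO 2, limma called 3 of 9 receptors, Epor, Csf2rb and Csf3r, against 22.1% of all genes, in a fit that assumes that KO 3 alone varies like the WT libraries. The groups did not overlap for 3 of 9 receptors, against 47.1% of all genes tested. Both KO values lay above all WT values for 1 receptor, Epor (23.9% of all genes tested), and below all WT values for 2, Csf1r and Csf2rb (23.2%). The receptors' median log2 fold change was 0.0068 and that of all genes tested 0.020. In bulk RNA, fewer cells that express a gene and less RNA per cell cannot be told apart, and nothing in the labels says whether the libraries of a group came from separate mice, so that p-values measure the spread between these libraries. An exact permutation test of a single gene could not go below p = 0.2 two-sided with 3 against 2 libraries.

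**Figure D3:**
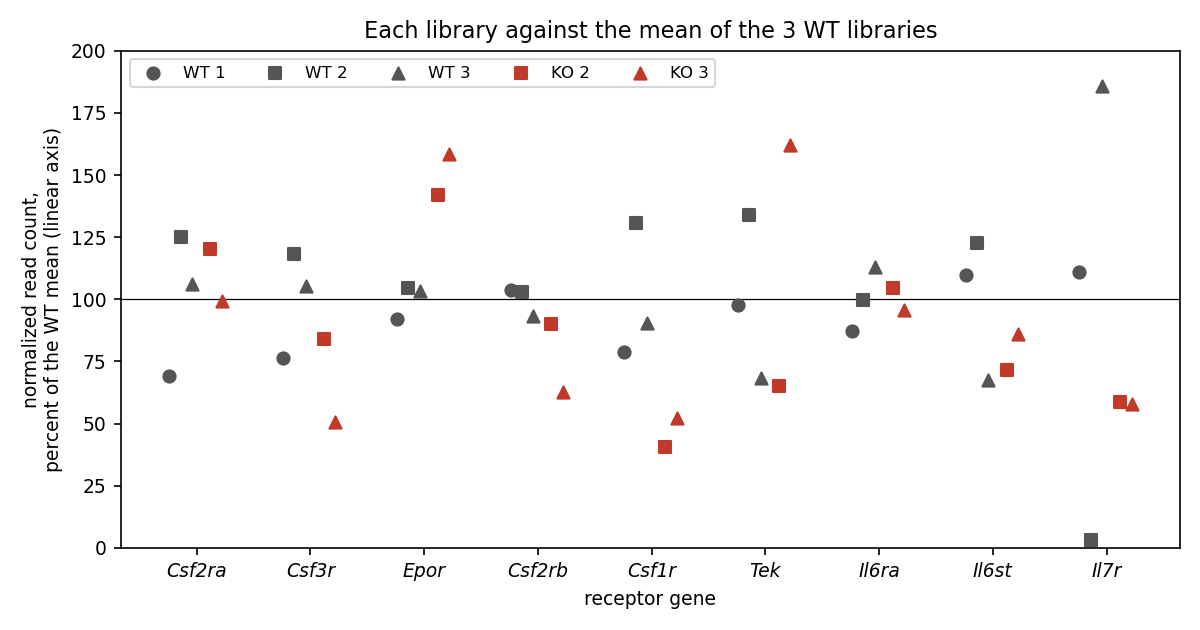
Normalized read count of each library as a percent of the mean of the 3 WT libraries (linear axis from 0), for each receptor, with WT in grey and KO in red and 1 point per library. Both KO points lie above all WT points for Epor (142% and 158%) and below them for Csf1r (40.6% and 52.3%) and Csf2rb (90.1% and 62.9%), and the 2 KO libraries lie on opposite sides of the WT mean for Tek.

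Epor, the receptor through which erythropoietin keeps red cell precursors alive, was higher in both KO libraries. Normalized counts were 2096, 2383 and 2347 in WT, against 3230 and 3604 in KO. The WT values lay close together and the groups did not overlap. The KO mean of 3417 ± 265 (SD, n = 2) was 150% of the WT mean of 2276 ± 156 (SD, n = 3), and the log2 fold change was 0.59 (95% confidence interval 0.20 to 0.97, SE 0.17, adjusted p = 0.0916 by limma). DESeq2 gave 0.59 with an adjusted p of 0.0153. Among the 9, the longest transcript of Epor is the shortest and the most GC-rich, with 1761 bases at 59.6% GC. After the length and GC adjustment the log2 fold change was -0.093 (95% confidence interval -0.43 to 0.24, limma adjusted p = 0.765), so that the direction was lost. Without KO 2, which carried adipocyte genes, it was 0.67 (limma adjusted p = 0.0426), and without KO 3 it was 0.51 (limma adjusted p = 0.311).

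Erythroid genes stood on both sides of WT. The red cell transcription factor gene Klf1, which acts in the same precursors, read 4231, 5800 and 6500 normalized counts in WT, against 8090 and 7671 in KO, above all WT values (log2 fold change 0.54, limma adjusted p = 0.147, and -0.24 after adjustment). Gata1 stood at 2590, 3311 and 3442 in WT and 3134 and 2819 in KO, overlapping. Car1, a carbonic anhydrase gene of red cells, had 15235, 17102 and 24050 in WT and 9703 and 5733 in KO (log2 fold change -1.31, limma adjusted p = 0.0815). Of the 12 erythroid genes, all tested, none was called by limma, 6 had an unadjusted p under 0.05 (27.8% of all genes) and DESeq2 called 2 of 12 lower (18.9% of all genes). Of the 12, 1 lay above and 4 below all WT values (23.9% and 23.2% of all genes), and the median log2 fold change was -0.49. That median rested on KO 3: against the WT mean it was 0.0076 for KO 2 alone and -0.95 for KO 3 alone. Hba-a1 and Hba-a2, both on the list, share 1 set of values. The list took 0.193% to 0.281% of WT reads, 0.200% of KO 2 and 0.118% of KO 3, and its part in the Epor difference was not tested.

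The stretch around the Epor start site is shown because Epor was the receptor with both KO values above WT, and is a textbook case of a promoter read by GATA and Sp1 factors. RefSeq (GRCm38.p6) places 250 bases before and 50 after the start on the minus strand at chr9:21963527-21963826, printed 5′ to 3′ along the gene. Letters in capitals mark matches, on either strand, to the GATA motif GATAA or the Sp1 motif GGGCGG.

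Epor: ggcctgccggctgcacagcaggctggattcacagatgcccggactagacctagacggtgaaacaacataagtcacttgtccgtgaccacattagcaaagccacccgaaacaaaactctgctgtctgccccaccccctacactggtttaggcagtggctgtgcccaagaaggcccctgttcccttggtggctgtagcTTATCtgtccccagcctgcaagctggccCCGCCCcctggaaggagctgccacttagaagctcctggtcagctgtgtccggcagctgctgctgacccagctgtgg

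Both matches were on the opposite strand, with the GATA match beginning 54 bases and the Sp1 match 26 bases before the start. The GATA letters occur on either strand in 25.4% and the Sp1 letters in 35.7% of the 32851 RefSeq windows of that length. A match describes letters only, and binding was not measured. GENCODE M21 (GRCm38) annotates Epor as a protein-coding gene on the minus strand at chr9:21958897-21963506, so that the RefSeq start lies upstream of the GENCODE start. Gata2, whose product binds GATA motifs in HSCs, read 4973, 4261 and 2269 normalized counts in WT, against 5333 and 14815 in KO (log2 fold change 1.29, limma adjusted p = 0.118; 0.55 without KO 3).

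Csf1r, the receptor for the monocyte growth factors CSF1 and IL-34, showed the largest log2 fold change in size among the receptors with all 5 libraries, while Csf3r exceeded it without KO 2 and Il7r without WT 2. Normalized counts were 683, 1135 and 785 in WT, against 353 and 454 in KO. Both KO libraries lay below the lowest WT library. The KO mean of 403 ± 71.8 (SD, n = 2) was 46.5% of the WT mean of 868 ± 237 (SD, n = 3), a log2 difference of -1.08 (95% confidence interval -1.71 to -0.45, SE 0.28, adjusted p = 0.082 by limma). DESeq2 gave -1.11 with an adjusted p of 0.00706, and after the length and GC adjustment the value was -1.43 (limma adjusted p = 0.138). The difference did not rest on a single KO library: it was -0.90 without KO 2 and -1.26 without KO 3 (limma adjusted p = 0.0824 and 0.259). Csf1r lies at chr18:61100598-61132149 on the plus strand in GENCODE M21, and its exons share 873 bases with Hmgxb3 on the opposite strand. Whether strand was used in counting was not stated, so that reads of those bases cannot be told apart.

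Some other monocyte genes were lower in KO beside Csf1r. Ccr2, the chemokine receptor of inflammatory monocytes, read 232, 281 and 201 normalized counts in WT, against 67.8 and 45.6 in KO (log2 fold change -2.06, limma adjusted p = 0.0815). F13a1, a transglutaminase subunit of monocytes and platelets, had 1785, 3234 and 1954 in WT and 767 and 645 in KO (log2 fold change -1.67, limma adjusted p = 0.0815). Neither overlapped between groups. Lyz2 and Ly6c2 were also below all WT values in both KO libraries, while Cd68 stood at 267 to 425 in WT and at 489 and 327 in KO, and Cx3cr1, Fcgr1, Mpeg1 and Ms4a7 overlapped. None of the 11 tested monocyte genes was called by limma, 5 had an unadjusted p under 0.05 (27.8% of all genes) and DESeq2 called 3 of 8 lower, Ccr2 and F13a1 among them (18.9% of all genes). Of the 11, 5 lay below and 0 above all WT values (23.2% and 23.9% of all genes), and the median log2 fold change was -0.99. Against the WT mean, that median was -0.27 for KO 2 alone and -1.51 for KO 3 alone. The share of this list among all reads, given above, was also lower in both KO libraries, lowest in KO 3 and highest in WT 3. Csf1r was lowest in KO 2 and highest in WT 2. Lyz2 made up most of the list's sum, with 70244 of 83875 normalized counts in WT 1. The part of the list in the Csf1r difference was not tested. The ligand gene Csf1 read 226, 249 and 162 normalized counts in WT, against 118 and 286 in KO, without separation, and Il34 was at 0 in all but WT 2, where it was 10.4.

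Csf3r (chr4:126024550-126044440, plus strand), the receptor for the neutrophil growth factor G-CSF, was lowest in KO 3. Normalized counts were 4413, 6823 and 6099 in WT, against 4863 and 2928 in KO. KO 2 lay within the WT range and KO 3 below it. The log2 fold change was -0.59 (95% confidence interval -1.20 to 0.02, SE 0.27, adjusted p = 0.19 by limma). It was -0.96 without KO 2 (limma adjusted p = 0.0425) and -0.22 without KO 3 (limma adjusted p = 0.709), so that the difference depended on KO 3. After the length and GC adjustment it was -0.90 (limma adjusted p = 0.199), and both KO values then lay below all WT values.

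Csf3r stood beside a large block of neutrophil genes that was also lowest in KO 3. Ngp, a secondary granule protein gene, read 277744, 303577 and 355453 normalized counts in WT, against 195888 and 73449 in KO. Elane, a primary granule protease gene, had 71505, 100807 and 90287 in WT and 107246 and 71897 in KO, overlapping. Of the 11 tested neutrophil genes none was called by limma, 8 had an unadjusted p under 0.05 (27.8% of all genes) and DESeq2 called 4 of 11 lower (18.9% of all genes). Of the same genes 5 lay below and 0 above all WT values (23.2% and 23.9% of all genes), and the median log2 fold change was -1.08. Taken alone against the WT mean, KO 2 gave a median of -0.45 and KO 3 one of -1.71. The part of the list in the Csf3r values was not tested. Within a library, the ratio of Epor to Csf3r per kb was 0.862, 0.634 and 0.698 in WT and 1.21 and 2.23 in KO, a comparison chosen after the values were seen. Both KO ratios were above all WT ratios, also after the length and GC adjustment.

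The promoter windows of Csf3r and Csf2ra are shown because they belong to the receptors with the highest levels per length, and because ETS factors such as PU.1 read purine-rich letters in myeloid receptor genes. Capitals mark the ETS motif GAGGAA, and the GATA and Sp1 motifs spelled above, on either strand. RefSeq (GRCm38.p6) gives Csf3r at chr4:126024409-126024708 on the plus strand and Csf2ra at chr19:61228369-61228668 on the minus strand.

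Csf3r: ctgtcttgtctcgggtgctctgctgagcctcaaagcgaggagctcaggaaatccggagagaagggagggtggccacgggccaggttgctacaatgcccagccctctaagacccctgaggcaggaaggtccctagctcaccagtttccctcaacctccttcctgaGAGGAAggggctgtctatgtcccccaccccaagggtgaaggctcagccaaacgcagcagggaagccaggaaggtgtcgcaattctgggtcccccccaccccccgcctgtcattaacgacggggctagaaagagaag

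Csf2ra: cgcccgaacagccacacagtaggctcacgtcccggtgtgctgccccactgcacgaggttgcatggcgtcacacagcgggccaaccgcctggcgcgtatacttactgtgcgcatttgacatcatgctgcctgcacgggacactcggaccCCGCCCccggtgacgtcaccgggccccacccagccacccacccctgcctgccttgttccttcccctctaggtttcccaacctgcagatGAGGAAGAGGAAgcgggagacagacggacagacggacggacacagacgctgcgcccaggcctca

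Csf3r held GAGGAA 86 bases before the start, and Csf2ra held it at 14 and at 8 bases before the start, side by side. These letters occur on either strand in 28.3% of the windows. Csf2ra also held the Sp1 letters on the opposite strand, 102 bases before the start, and neither window held GATAA. For both genes the RefSeq start lies downstream of the GENCODE M21 start, at chr4:126024550 and chr19:61228429. The Csf3r ETS match and the nearer Csf2ra ETS match therefore lie inside the GENCODE genes. The table of RefSeq windows used here held 7 of the 9 receptors, without Csf1r and Csf2rb.

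Csf2ra, the ligand-specific chain of the GM-CSF receptor, was the most abundant receptor per length and did not separate the groups. Normalized counts were 4171, 7564 and 6415 in WT, against 7285 and 6000 in KO. The KO values lay inside the WT range, and the log2 fold change was 0.17 (95% confidence interval -0.42 to 0.76, SE 0.26, adjusted p = 0.687 by limma). After the length and GC adjustment it was -0.39 (limma adjusted p = 0.428). The gene lies at chr19:61223957-61228429 on the minus strand in GENCODE M21, and its longest transcript has 2277 bases at 57.8% GC.

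Csf2rb, the common beta chain, was lower in both KO libraries. Normalized counts were 2722, 2697 and 2452 in WT, against 2364 and 1649 in KO. The groups did not overlap, but KO 2 lay close under WT 3. The KO mean of 2007 ± 506 (SD, n = 2) was 76.5% of the WT mean of 2624 ± 149 (SD, n = 3), and the log2 fold change was -0.41 (95% confidence interval -0.87 to 0.05, SE 0.20, adjusted p = 0.222 by limma). It was -0.67 without KO 2 (limma adjusted p = 0.0411) and -0.15 without KO 3 (limma adjusted p = 0.721). After the length and GC adjustment it was -0.72 (limma adjusted p = 0.205).

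Csf2rb2, a near-identical neighbour that serves as the IL-3-specific beta chain of the mouse, was also lowest in KO 3, but its groups overlapped. Normalized counts were 360, 313 and 255 in WT and 256 and 191 in KO (log2 fold change -0.47, limma adjusted p = 0.334). Per kb, Csf2rb was 4.93, 5.61 and 6.27 times Csf2rb2 in WT and 6.02 and 5.61 times in KO, so that their proportion overlapped between groups. Counting can split reads between these copies, and the value of either is uncertain to that extent. They lie on chromosome 15, Csf2rb at chr15:78325752-78353847 on the plus strand and Csf2rb2 at chr15:78282507-78305721 on the minus strand.

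The ligand-specific chains that pair with Csf2rb were set beside it. Il3ra, the IL-3 specific chain, read 264, 350 and 347 normalized counts in WT, against 506 and 727 in KO. Both KO libraries lay above all WT libraries, and the fitted difference was 0.93 on the log2 scale (limma adjusted p = 0.0936, SE 0.28; DESeq2 adjusted p = 0.0197), which was 0.16 after the length and GC adjustment. Per kb, the ratio of Il3ra to Csf2rb was 0.238, 0.318 and 0.347 in WT and 0.525 and 1.08 in KO. The ratio of Csf2ra to Csf2rb was 3.88, 7.11 and 6.63 in WT and 7.81 and 9.22 in KO. Both ratios were above all WT ratios in KO, but after the length and GC adjustment only that of Il3ra stayed so among these 2, which were chosen after the values were seen. Il5ra, the chain of eosinophil precursors, stood at 0 to 9.55 in WT and at 7.2 and 3.04 in KO, too low to be tested.

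Il6ra (chr3:89864059-89913196, minus strand), the IL-6 binding chain, had the smallest fold change of the 9. Normalized counts were 352, 402 and 457 in WT, against 421 and 386 in KO. Both KO values lay inside the WT range. The means were 404 ± 52.3 in WT and 404 ± 25.2 in KO, and the log2 fold change was 0.0068 (limma adjusted p = 0.988, SE 0.25). Its 95% confidence interval was -0.56 to 0.58, so that a change inside that interval is not excluded.

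Il6st (chr13:112464070-112510086, plus strand), the signalling chain gp130, stood lower per kb of merged exon than the IL-6 binding chain in every library. That order depends on the length used. Il6st has 11099 bases of merged exon but 8678 in its longest transcript, against 8642 and 8639 for Il6ra. Normalized counts of Il6st were 371, 415 and 229 in WT, against 242 and 292 in KO. They lay above those of Il6ra in WT 1 and WT 2 and below them elsewhere. The groups overlapped, with WT 3 lowest of all (log2 fold change -0.30, limma adjusted p = 0.568, SE 0.33). Leaving out 1 library moved the fold change between -0.56 (without WT 3, where the groups no longer overlapped) and -0.13 (without WT 2). The exons of Il6ra share 242 bases with Gm42809, an antisense gene with no row in the table. Per kb, Il6ra was 1.22, 1.24 and 2.56 times Il6st in WT and 2.24 and 1.70 times in KO. Other chains that pair with gp130 were uneven: Il11ra1 had 823, 814 and 491 in WT and 671 and 1396 in KO (limma adjusted p = 0.396), Lifr stood at 0.833 to 42.5 and Osmr at 0 to 13.4 over all libraries.

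Il7r (chr15:9505788-9530176, minus strand), the lymphoid receptor chain, was close to the floor of the assay. It had 35, 1 and 57 reads in WT, against 15 and 10 in KO. Normalized, these were 29.1 (exact 95% Poisson interval 20.3 to 40.5), 0.868 (0.022 to 4.84) and 48.8 (37.0 to 63.3) in WT, and 15.4 (8.63 to 25.4) and 15.2 (7.28 to 27.9) in KO, with intervals that cover counting error only. WT 2 lay below every other library, beyond counting error, and the KO libraries lay between it and the other two. The limma log2 fold change was 0.21 (limma adjusted p = 0.931, SE 1.37), although the KO mean of 15.3 was 58.2% of the WT mean of 26.3. The sign turned without WT 2, at -1.25 (limma adjusted p = 0.379), and also with all 5 libraries under a pseudocount of 10 (-0.21), edgeR (-0.80) and DESeq2 (-0.78), so that no direction can be read for Il7r.

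Lymphoid genes stood at unequal levels. The 12 lymphoid markers summed to 0.00554% to 0.0077% of reads in WT, 0.00446% in KO 2 and 0.00622% in KO 3, and Pax5 and Cd3e, which define B and T cells, stood at 0 to 4.56. Cd79b, a signalling chain of the B-cell receptor, was well above these, at 457, 353 and 329 in WT and 365 and 282 in KO, overlapping. Dntt, the terminal transferase of early lymphoid progenitors, had 491, 323 and 458 in WT and 108 and 175 in KO (log2 fold change -1.60, limma adjusted p = 0.0815), and was the 1 lymphoid gene of 10 tested whose groups did not overlap (47.1% of all genes). Of the chains that pair with IL7RA, Il2rg had 2124, 1472 and 1452 in WT and 1411 and 1572 in KO, overlapping. Crlf2, the TSLP receptor chain, had 1334, 1350 and 1014 in WT and 1790 and 4892 in KO (log2 fold change 1.27, limma adjusted p = 0.0936, SE 0.38; DESeq2 adjusted p = 0.0046; 0.17 after the length and GC adjustment and 0.55 without KO 3). The ligand gene Tslp itself had 37.5, 22.6 and 36.8 in WT and 10.3 and 4.56 in KO (log2 fold change -2.04, limma adjusted p = 0.132).

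Tek (chr4:94739289-94874976, plus strand), the angiopoietin receptor of quiescent HSCs and of endothelium, differed more between the KO libraries than between the groups. Normalized counts were 357, 490 and 249 in WT, against 237 and 592 in KO. KO 2 was the lowest and KO 3 the highest of the 5 libraries. The log2 fold change was 0.091 (95% confidence interval -0.90 to 1.09, SE 0.44, adjusted p = 0.906 by limma). It was 0.75 without KO 2 (limma adjusted p = 0.209) and -0.57 without KO 3 (limma adjusted p = 0.554).

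The companion receptor Tie1 and the ligand Angpt1 were read beside Tek. Tie1 read 1476, 1328 and 483 normalized counts in WT, against 1394 and 4055 in KO (log2 fold change 1.27, limma adjusted p = 0.175, SE 0.55; 0.50 without KO 3). Per kb, the ratio of Tek to Tie1 was 0.252, 0.385 and 0.538 in WT and 0.178 and 0.152 in KO, lower in both KO libraries, but overlapping once length and GC were adjusted for. Angpt1 was detected in every library, with 4053, 1995 and 1563 in WT and 1606 and 1792 in KO (log2 fold change -0.46, limma adjusted p = 0.424). WT 1 was highest for Angpt1 and KO 3 for Tie1 and Tek. The 12 endothelial markers summed to 0.00819% to 0.0153% of reads in WT, 0.0126% in KO 2 and 0.0166% in KO 3, and 0 of the 11 tested had groups that did not overlap (47.1% of all genes). Cdh5, the cadherin of endothelial junctions, had 0, 32.1 and 0 in WT and 54.5 and 1.52 in KO. Kdr and Cldn5 were also highest in WT 2 and KO 2, at 109 and 85.3 for Kdr and 63.4 and 67.8 for Cldn5. Esam, an adhesion molecule also found on HSCs, had 1272, 755 and 542 in WT and 926 and 1532 in KO, and was highest in KO 3. The summed HSC markers, given above, were highest in KO 3 and lowest in WT 3, and their part in the Tek values was not tested.

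**Figure D4:**
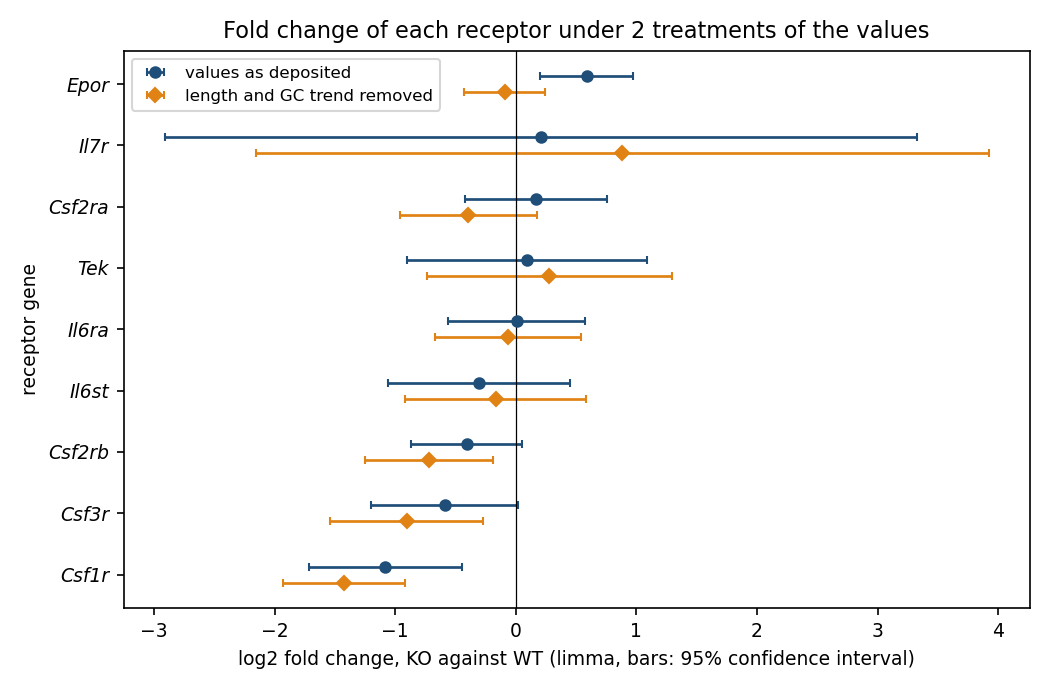
Limma log2 fold change, KO (n = 2) against WT (n = 3), with its 95% confidence interval, for each receptor, with the values as deposited (circles) and after the length and GC adjustment (diamonds). Epor is at 0.59 and -0.093, Csf2ra at 0.17 and -0.39, while Csf1r is at -1.08 and -1.43 with both intervals below 0.

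Among 38 other cytokine receptor genes, 32 were tested and none was called by limma, while 10 had an unadjusted p under 0.05 (27.8% of all genes). DESeq2 called 2 higher and 4 lower of the 30 to which it gave an adjusted p (18.9% of all genes). Both KO values lay above all WT values for 4 and below for 9 of the 32 (23.9% and 23.2% of all genes), and the median log2 fold change was -0.037. Against the WT mean it was -0.13 for KO 2 alone and 0.033 for KO 3 alone. Il18rap, the IL-18 accessory chain, read 1081, 1154 and 1091 normalized counts in WT, against 473 and 238 in KO (log2 fold change -1.72, limma adjusted p = 0.0815). Il13ra1, an IL-13 receptor chain, had 45.0, 38.2 and 79.7 in WT and 18.5 and 10.6 in KO (log2 fold change -1.80, limma adjusted p = 0.121). Il2ra had 7.49, 1.74 and 3.43 in WT and 10.3 and 24.3 in KO, near the floor of 3 reads. The receptors that mark the gate or the earliest progenitors overlapped: Kit stood at 9916, 10741 and 8119 in WT and 8007 and 10259 in KO, and Flt3 at 796, 783 and 562 in WT and 425 and 604 in KO (limma adjusted p = 0.831 and 0.272).

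Ligand genes were mostly low in the sorted cells. Of 19 ligand genes 9 were tested, and 6 had 3 reads or fewer in every library. Epo, Csf2, Csf3 and Il3 were at 0 in all 5 libraries, which allows up to 3 reads, or 2.50 to 4.56 normalized counts per library, so that transcripts of the ligands of EPOR and of the GM-CSF, G-CSF and IL-3 receptors were not detectable at this depth. None of the 9 was called by limma, nor any of the 4 ligand genes to which DESeq2 gave an adjusted p. Of the 9, 1 had an unadjusted limma p under 0.05 (27.8% of all genes), and the median log2 fold change was -0.37. Against the WT mean it was -0.79 for KO 2 alone and -0.16 for KO 3 alone.

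The signal transducers downstream of these receptors were all measured. None of 24 was called by limma, 7 had an unadjusted p under 0.05 (27.8% of all genes), and DESeq2 called 3 higher and 3 lower (18.9% of all genes). Lyn, a Src-family kinase bound to several of these receptors, read 2030, 2617 and 2513 normalized counts in WT, against 1339 and 1244 in KO (log2 fold change -0.88, limma adjusted p = 0.0815; DESeq2 adjusted p = 0.00125). Jak2, the kinase on which EPOR and the beta common chain depend, had 1867, 2021 and 2271 in WT and 1421 and 1095 in KO (log2 fold change -0.71, limma adjusted p = 0.0879). Both kinases were lower in both KO libraries and stayed below 0 after the length and GC adjustment, at -0.58 and -0.33. The listed genes with the highest fold changes among those whose groups did not overlap were the inhibitor Socs1, at 165, 155 and 89.1 in WT and 203 and 647 in KO, and the adaptor Dok2, at 1092, 1133 and 690 in WT and 1557 and 3074 in KO (log2 fold change 1.45 and 1.20, limma adjusted p = 0.123 and 0.0879). Both were highest in KO 3, and without it their values were 0.62 and 0.71 (limma adjusted p = 0.577 and 0.369). Other inhibitors on the list stood on both sides of 0 with overlapping groups, with log2 fold changes of 1.88 for Socs2, 1.06 for Cish, 0.64 for Sh2b3, -0.53 for Socs3 and -0.58 for Cbl. Without KO 3 these were 0.83, 0.50, 0.26, -1.42 and -0.21 in the same order. The sign of Socs3 turned without KO 2, at 0.37. The median of the list was 0.10, and its sign depended on KO 3: against the WT mean it was -0.035 for KO 2 alone and 0.34 for KO 3 alone.

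Of 8 genes that cleave receptors from the surface or accompany them in traffic, none was called by limma, 3 had an unadjusted p under 0.05 (27.8% of all genes) and DESeq2 called 1 of 7 (18.9% of all genes). That gene was Adam10, a protease that sheds receptor ectodomains, with normalized read counts of 4387, 4146 and 4498 in WT and 2375 and 2615 in KO (log2 fold change -0.80, limma adjusted p = 0.0815; -0.25 after the length and GC adjustment). Adam17, which sheds CSF1R and IL6RA, had 1550, 1810 and 1647 in WT and 1181 and 1206 in KO (log2 fold change -0.48, limma adjusted p = 0.133; -0.15 after adjustment). Both proteases lay below all WT values in both KO libraries. Tfr2, which binds EPOR and supports its transport, had 4175, 4812 and 5255 in WT and 5543 and 7644 in KO (log2 fold change 0.46, limma adjusted p = 0.177; -0.11 after adjustment and 0.23 without KO 3). The list's median log2 fold change was -0.059.

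Genes with the most similar profiles over the 5 libraries were sought for the most abundant receptor and the one with the largest fold change in size with all libraries, among 10560 genes whose mean value was 100 or more. Distance was Euclidean, on log2(value + 1) centred on each gene's mean. Csf2ra was nearest to BC037034 (distance 0.11) and Dis3l2 (0.14). Csf1r was nearest to Tmem119 (0.29), with normalized read counts of 216, 326 and 273 in WT and 132 and 146 in KO, and to Dnaja4 (0.34).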

How the data were processed

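RNA sequencing of sorted HSCs gave 5 libraries, 3 WT and 2 KO, grouped by the genotype in the sample titles. The authors deposited normalized signal, reads per gene scaled by 1 size factor for each library; the submitters' processing notes name STAR, featureCounts, DESeq2 and the mm10 build, without versions, and the annotation and the use of strand were not given in the sources used here. All positive values in a library were whole multiples of 1 step, so that whole reads were recovered for 100% of values (within 0.01 of a whole number). A second deposited file holds fold changes and p-values of the authors' own comparison and was not used.

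The 13661 genes that reached a value of 10 in 2 or more libraries entered limma (version 3.58.1, R 4.3.3; trended variance) on log2(value + 1), all libraries, no covariate, Benjamini-Hochberg over all genes, two-sided. Fold changes are on that scale, which understates changes of low genes. edgeR (4.0.16, quasi-likelihood) and DESeq2 (1.42.0) ran on the recovered reads. Gene models came from GENCODE M21 (GRCm38, the assembly behind mm10), which matched 22804 symbols. A linear trend on the length and GC content of the longest transcript could be removed for 13015 tested genes. Scripts were tested on simulated data. No molecular identifiers were used, so that reads are not separate molecules and intervals cover counting error alone.

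All 9 receptors were named, with Csf2rb2, Syncrip, preset partner genes (1 is not reported here) and, per other list, any gene limma called plus the top 2 and bottom 2 by fold change where groups did not overlap. Marker genes outside these were named after their values were seen. Receptors and lists were chosen with earlier results of these data known. Alternatives covered the pseudocount, filter, scaling, tool, replicate number as a block, length and GC trend, and each library left out.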

Additional observations from a re-analysis of the deposited data

How the results depend on the processing

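Csf1r, Csf2rb, Csf3r and Il6st kept a negative log2 fold change under all 14 alternatives. DESeq2 called 2 receptors, 13 genes of the lists of other cytokine receptors, ligands, signal transducers and shedding genes (marker lists are not counted here) and 2285 genes in all; edgeR called 2 genes, as did a pseudocount of 10, and dropping the filter or adjusting for length and GC called 0, where 3963 and 2254 genes had an unadjusted limma p under 0.05. Syncrip was then at -2.43 and -1.53 (limma adjusted p = 0.0503 and 0.138). The length and GC adjustment turned Epor to -0.093, Csf2ra to -0.39 and Il6ra to -0.067. Il6ra was also below 0 with TMM scaling (-0.014) and edgeR (-0.019), and Il7r with a pseudocount of 10 (-0.21), edgeR (-0.80) and DESeq2 (-0.78). The causes were not tested.

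Leaving out 1 library at a time, limma called 0 to 3 receptors, 0 to 19 genes of those lists and 0 to 3024 of all genes, with the highest counts without KO 2 (where KO 3 alone is assumed to vary like WT) and none without any 1 WT library, where 2169 to 3055 genes had an unadjusted p under 0.05. Receptors with separate groups then numbered 4 to 5 of 9, where 52.5% to 78.3% of all genes were separate, since fewer libraries have to be passed. Log2 fold changes ranged from -2.55 to -2.32 for Syncrip (limma adjusted p up to 0.21), -0.57 to 0.75 for Tek, -0.075 to 0.35 for Csf2ra, -0.087 to 0.10 for Il6ra and -1.25 to 1.12 for Il7r.

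Replicate numbers 2 and 3 occur in both groups, and the labels do not say that they mark a shared donor, recipient or batch. Deviations from the group means correlated at r = -0.059 (number 2) and -0.18 (number 3) across genes. With 2 KO libraries the crossed pairs have the same r with the opposite sign, so that these values cannot settle whether anything was shared, and the numbers were not taken as pairs. With the replicate number as a block, limma called 6 genes and no receptor, with Csf2ra at -0.075 and Il6ra at -0.087, and with the block and the length and GC adjustment together 4 genes, with Syncrip at -1.49 (limma adjusted p = 0.169), Epor at -0.10, Csf2ra at -0.60 and Il6ra at -0.12. With 2 KO libraries and 10 to 57 Il7r reads in 4 of the libraries, depth limits what can be said of Il7r and of the ligands.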
